A study of Mus musculus with 13 samples.

Results

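Immediate-early genes and AP-1 genes were followed in microglia, the resident macrophages of the brain, as 36 named genes of the 19737 listed in the deposited expression table. The genes were taken by symbol from a list drawn up with earlier results of these data known, and all 36 were found. Expression was measured in 13 libraries as FPKM, fragments per kilobase of gene, relative to all fragments of that library. Of the 36 genes, 34 had a mean of at least 1 FPKM and were tested among 10817 genes, while Ier5l and Nr4a2 fell below that level.

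Immediate-early genes are transcribed within minutes of a stimulus without the need for new protein, because the factors that switch them on (SRF with its ternary complex partners, CREB and NF-kappaB) are already present and are activated by kinases. Many of their products are transcription factors. FOS and JUN family proteins pair through leucine zippers to form AP-1, which acts on a later wave of genes, and the messages carry elements that make them short-lived. In microglia these genes respond to inflammatory signals and also to the dissociation of brain tissue, so their levels are known to depend on how cells were isolated.

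Of the 4 groups, 2 received AAV PHP.eB-EGFP, namely wild type (n = 3) and 5xFAD (n = 2). A further group of 5xFAD mice received AAV PHP.eB-circPOLR2A (n = 4), and the last was 5xFAD with PKR knockout (n = 4). AAV PHP.eB is an adeno-associated virus capsid that enters the brain from the blood, EGFP is a green fluorescent protein used as the control cargo, and circPOLR2A is a circular RNA. The 5xFAD mouse carries human amyloid precursor protein and presenilin transgenes under the neuronal Thy1 promoter and develops amyloid plaques. PKR, encoded by Eif2ak2, is a kinase activated by double-stranded RNA. The 4 circRNA libraries carry construct labels that differ in their second number, (9,10), (9,11), (9,12) and (9,13), whereas the design text gives (9,10) for the group; they were kept as 1 group. No vector is named for the PKR knockout mice, and library names appear in the labels of that group alone, so the knockout, the absence of a named vector and any difference in processing cannot be told apart. Age, sex and the cells in which PKR was deleted are not given in the sources used here, nor is it stated that the libraries came from separate animals, so the p-values measure the spread between these libraries.

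The promoters of these genes are shown first, and a link between their motifs and the changes below was not tested. RefSeq windows of 300 bases, from 250 before to 50 after each start, were at hand for 29 of the 36 genes (build GRCm38.p6). The 7 without a window were Egr1, Egr3, Ier2, Klf10, Kdm6b, Myc and Hes1, and their promoters were not searched. The core of the cAMP response element, TGACG on either strand, was present in 21 of the 29 (72.4%), against 23% of 27025 genes. The full element TGACGTCA, which contains this core, was present in Btg2, Maff and Plk2 (10.3%, against 2.03%), and GCGNGGGCG, read by EGR factors, in 10 genes (34.5%, against 6.27%). A match to the degenerate kappaB consensus was found in 6 genes (20.7%, against 5.14%), namely Fos, Fosb, Fosl2, Ier3, Maff and Nr4a1. The AP-1 site TGANTCA was found in Csrnp1 alone (3.45%, against 8.97%), and the CArG box bound by SRF in Egr2 alone (3.45%, against 1.81%). Elements farther than 250 bases before a start were not searched, so a gene without a match may hold one outside its window. All motifs were searched on both strands, and a match describes letters, not occupancy. The genes of the background were not matched for base content or for the number of windows per gene. The 250 bases before the start are printed 5′ to 3′ for 5 genes that were higher in every PKR knockout library, with TGACG cores and kappaB matches in capitals. Maff has 3 start windows: the stretch shown precedes an internal start, lies in no annotated exon and is the one with the full element. The Maff window at the first start has neither a core nor a kappaB match, and the kappaB match of Maff is in the third. The last 6 bases of the Fosb stretch and the last 29 of the Ier3 stretch lie in the first exon of those genes in GENCODE M21.
Fos, chr12:85473640-85473889, plus strand: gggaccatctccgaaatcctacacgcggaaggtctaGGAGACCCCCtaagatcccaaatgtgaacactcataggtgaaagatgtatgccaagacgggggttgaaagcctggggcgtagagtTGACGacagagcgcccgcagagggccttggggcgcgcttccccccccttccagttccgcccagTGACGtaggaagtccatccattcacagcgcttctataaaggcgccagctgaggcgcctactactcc
Fosb, chr7:19310046-19310295, minus strand: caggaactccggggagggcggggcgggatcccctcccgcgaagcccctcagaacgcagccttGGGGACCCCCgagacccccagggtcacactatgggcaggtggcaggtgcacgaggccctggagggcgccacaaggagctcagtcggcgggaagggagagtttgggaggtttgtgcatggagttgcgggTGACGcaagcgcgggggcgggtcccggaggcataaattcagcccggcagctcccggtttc
Junb, chr8:84978749-84978998, minus strand: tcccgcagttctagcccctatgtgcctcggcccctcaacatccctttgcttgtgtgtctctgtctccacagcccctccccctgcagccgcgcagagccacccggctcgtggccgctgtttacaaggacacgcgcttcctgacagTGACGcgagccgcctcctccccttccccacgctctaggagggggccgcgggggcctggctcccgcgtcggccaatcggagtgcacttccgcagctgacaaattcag
Maff, chr15:79347270-79347519, plus strand: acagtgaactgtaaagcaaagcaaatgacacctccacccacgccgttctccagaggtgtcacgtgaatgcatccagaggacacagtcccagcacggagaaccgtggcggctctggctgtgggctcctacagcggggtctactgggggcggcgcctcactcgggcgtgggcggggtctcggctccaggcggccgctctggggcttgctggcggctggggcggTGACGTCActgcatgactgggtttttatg
Ier3, chr17:35821463-35821712, plus strand: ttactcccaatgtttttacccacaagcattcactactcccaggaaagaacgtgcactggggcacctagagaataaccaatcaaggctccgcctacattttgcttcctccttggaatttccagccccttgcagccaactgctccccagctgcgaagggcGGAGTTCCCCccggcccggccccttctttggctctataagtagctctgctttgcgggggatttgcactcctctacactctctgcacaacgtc

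The depth recovered from the FPKM steps was 57.6 to 69.9 M (mega) fragments in the PKR knockout libraries and 45.1 to 54.8 M in the others. The knockout libraries were thus all deeper, a difference that cannot be told apart from the knockout. Genes of low FPKM still had many fragments in each library (Maff 133 to 2742, Egr2 202 to 2980 and Hes1 165 to 477). Microglial markers summed to 3200 to 6035 FPKM in every library, and lymphocyte markers to at most 0.602 FPKM. Oligodendrocyte markers summed to 354 to 1584 FPKM in wild type, 640 to 684 in 5xFAD EGFP, 312 to 790 with circRNA and 230 to 379 in PKR knockout libraries, and wild type replicate 3 held the most. With a covariate for markers of other cells, 19 immediate-early genes rose in the knockout comparison described below, where 17 rose without it. Of all genes, 294 rose and 398 fell with that covariate, and 200 and 213 without it. The targeted gene Eif2ak2 was 3.35, 4.61, 3.31 and 4.16 FPKM in the PKR knockout libraries, 6.49 and 6.59 in 5xFAD EGFP, 7.37, 7.48, 7.73 and 8.11 with circRNA and 5.18, 5.23 and 4.14 in wild type. All 4 knockout libraries lay below the other 5xFAD libraries, but they overlapped wild type and the transcript was not absent; the labels do not say which part of the gene was removed.

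Most of the 36 genes were highest in the PKR knockout libraries. The group mean was highest in PKR knockout for 30 genes and in wild type for the other 6, and it was lowest in wild type for 20, with circRNA for 11, in 5xFAD EGFP for 3 and in PKR knockout for 2. The genes covered a wide range of levels per length: averaged over the 13 libraries, Rhob, a small GTPase of endosomes and actin, stood at 399 FPKM, Jun at 236, Junb at 225 and Jund at 198, whereas Nr4a2 stood at 0.864 and Ier5l at 0.645. In bulk RNA, fewer expressing cells and less RNA per cell cannot be told apart.

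**Figure D1:**
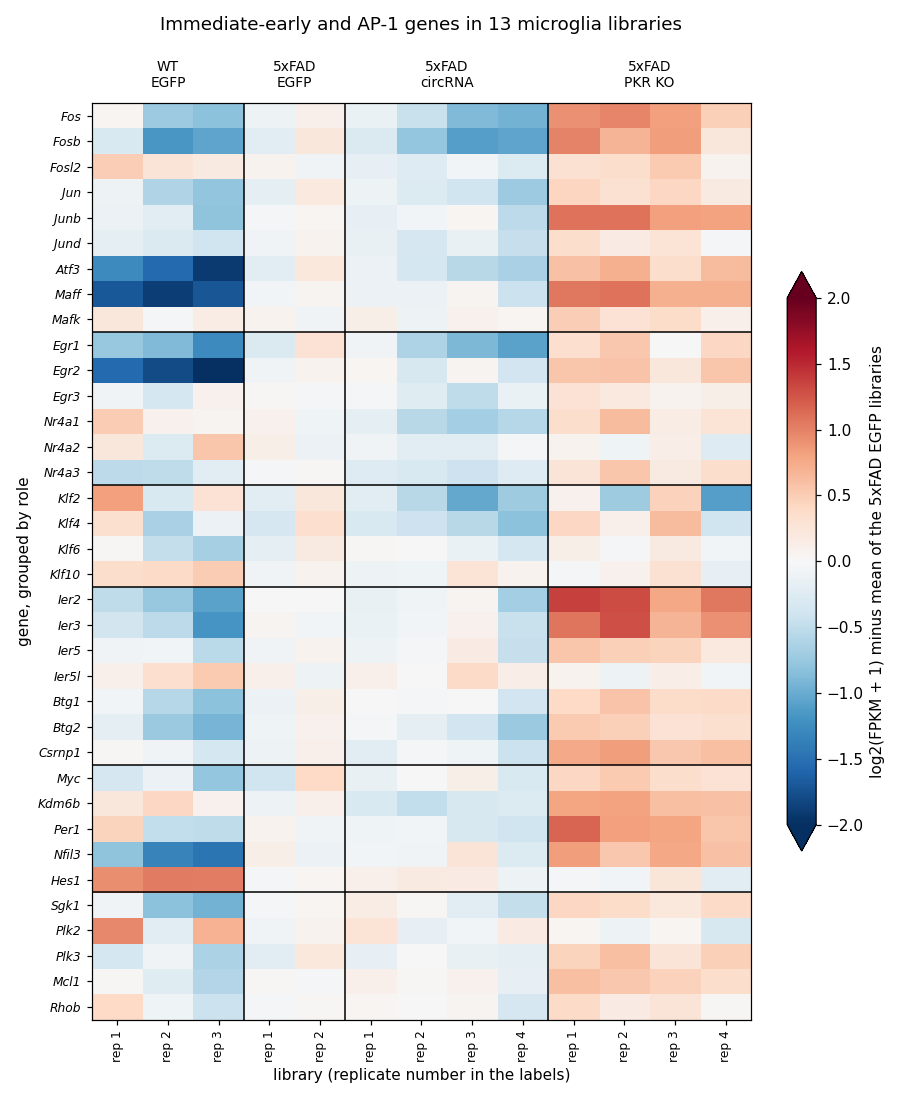
Level of each of the 36 genes (rows, grouped by role) in each of the 13 libraries (columns), as log2(FPKM + 1) minus the mean of the 2 5xFAD EGFP libraries, from blue (lower) to red (higher). The 4 PKR knockout columns are red for most genes outside the KLF rows, the wild type columns are darkest blue for Maff, Egr2 and Atf3, and Hes1 is deepest red in the 3 wild type columns.

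The PKR knockout group was compared with the mean of the 2 other 5xFAD groups, each group weighted equally, to ask which genes follow the knockout. In limma, 17 of the 34 tested genes were higher and none was lower at an adjusted p under 0.05; at an unadjusted p under 0.05, 27 were higher and still none lower. Of all genes tested, 1.85% were higher (200) and 1.97% lower (213) at the adjusted threshold, and 8.23% and 14.4% at the unadjusted one. With library sizes taken from the median of gene ratios, 659 of all genes were higher and 265 lower, and 23 of the 34 were higher. The median change of the 34 genes was 0.50 on the log2(FPKM + 1) scale against -0.04 over all genes, a scale that understates changes of genes near 1 FPKM. All 4 knockout libraries lay above all 6 other 5xFAD libraries for 22 of the 34, against 3.89% of all genes, and above all 9 other libraries for 19, against 2.67%; for none did they lie below the 6, against 7.65%. The count of 17 fell to 6 without PKR knockout replicate 2, where 48 of all genes were higher and 14 lower. It fell to 7 without PKR knockout replicate 1, where 61 of all genes were higher and 29 lower. Leaving out a 5xFAD EGFP library leaves 1 in that group. The median of the 34 was then 0.46 without replicate 1 and 0.60 without replicate 2. With the mean level of genes induced by tissue dissociation as a covariate (the dissociation covariate, described below) none of the 34 passed, 13 were higher and 1 lower at an unadjusted p under 0.05, and the median of the 34 was 0.25.

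**Figure D2:**
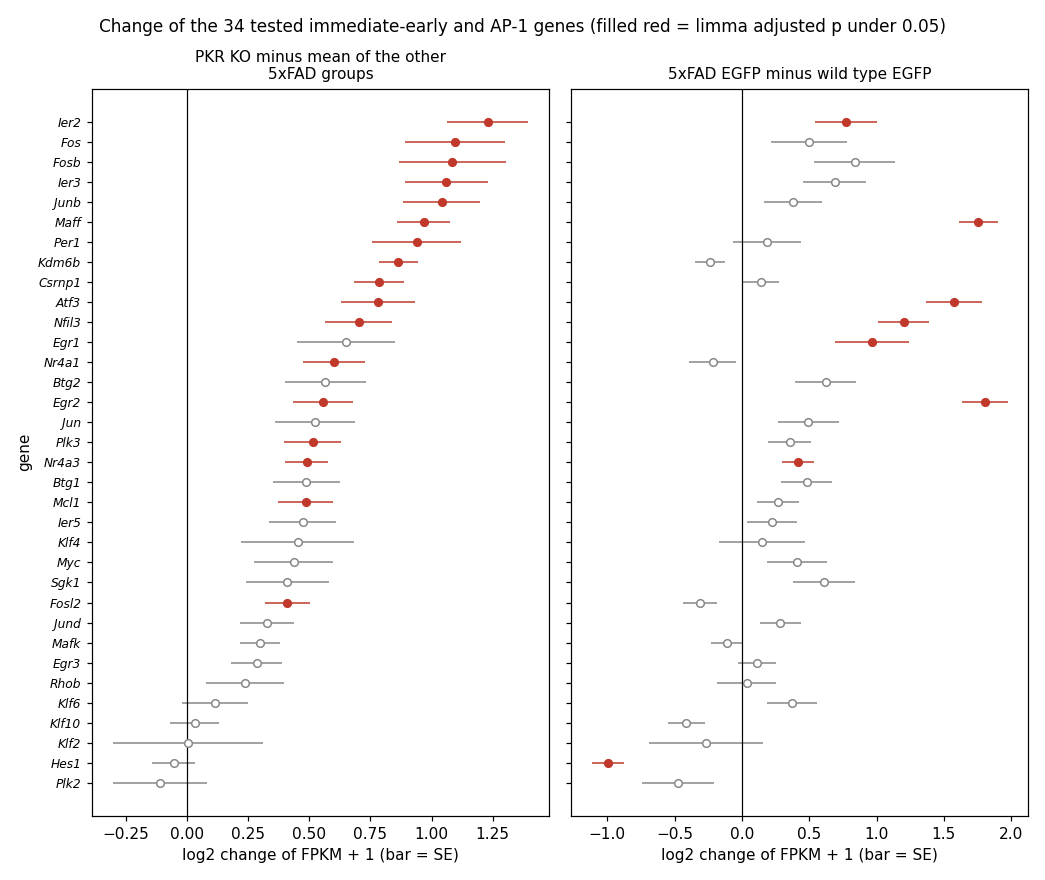
Change of the 34 tested genes as limma's difference in log2(FPKM + 1), with bars of 1 standard error, for PKR knockout minus the mean of the other 5xFAD groups (left) and 5xFAD EGFP minus wild type EGFP (right); filled red points passed an adjusted p of 0.05. On the left 17 points are filled, all right of 0, from Fosl2 at 0.41 to Ier2 at 1.23; on the right 8 are filled, with Egr2 at 1.80 the farthest right and Hes1 at -0.99 the only one left of 0.

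Among the AP-1 subunits and their bZIP partners, 6 of 9 rose in PKR knockout (Fos, Fosb, Fosl2, Junb, Atf3 and Maff), and Jun, Jund and Mafk did not pass. Fos, the founding AP-1 subunit, was 188, 194, 175 and 137 FPKM in the 4 knockout libraries, 92.1 and 106 in 5xFAD EGFP, 89.5, 72.3, 52.8 and 50.6 with circRNA, and 102, 58.9 and 55.7 in wild type. Every knockout library was above every other library, and wild type overlapped both other groups. The change against the other 5xFAD groups was 1.10 ± 0.20 (log2, SE), with an adjusted p of 0.0171. Fosb, a FOS paralogue, was 56.5, 45.7, 50.5 and 32.8 FPKM in knockout libraries, 23.9 and 32.8 in 5xFAD EGFP, 22.6, 15.9, 12.5 and 13.0 with circRNA, and 22.5, 12.0 and 13.0 in wild type. Knockout replicate 4 was almost level with 5xFAD EGFP replicate 2, and the change was 1.09 ± 0.22 (adjusted p = 0.0230).

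Junb, the JUN protein that often acts as a brake on Jun, was 397, 397, 330 and 327 FPKM in knockout libraries, 181 and 191 in 5xFAD EGFP, 166, 180, 191 and 129 with circRNA, and 172, 160 and 106 in wild type. The knockout group stood clear of all 9 other libraries, and the mean was 1.95 times that of 5xFAD EGFP, with a change of 1.04 ± 0.16 against the 2 other 5xFAD groups (adjusted p = 0.00697). Jun itself averaged 314 ± 25.0 FPKM (SD, n = 4) in knockout and 251 ± 49.6 (n = 2) in 5xFAD EGFP, and its lowest knockout library at 282 was below 5xFAD EGFP replicate 2 at 286. Its change of 0.52 ± 0.16 had an adjusted p of 0.0908, and Jund, the constitutive JUN protein, gave 0.33 ± 0.11 (adjusted p = 0.107).

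Atf3, a stress-induced bZIP factor, was 149, 161, 126 and 154 FPKM in knockout libraries, 84.6 and 114 in 5xFAD EGFP, 90.5, 76.7, 66.4 and 62.6 with circRNA, and 40.0, 33.0 and 25.5 in wild type. Its order was knockout above the other 5xFAD libraries above wild type, with no overlap at either step, and the change against the other 5xFAD groups was 0.78 ± 0.15 (adjusted p = 0.0189). Maff, a small MAF protein that has no activation domain and pairs with other bZIP factors, was 14.8, 15.1, 11.4 and 11.5 FPKM in knockout libraries. It was 6.37 and 6.87 FPKM in 5xFAD EGFP, 5.99, 6.01, 6.92 and 4.65 with circRNA, and 1.36, 1.08 and 1.33 in wild type. It followed the same 3 steps as Atf3, and the knockout change was 0.97 ± 0.11 (adjusted p = 0.00251). Fosl2, a slower FOS relative, was 3.30 ± 0.54 FPKM in knockout (SD, n = 4) and 2.44 ± 0.23 (n = 2) in 5xFAD EGFP, with a change of 0.41 ± 0.09 (adjusted p = 0.0342), and was as high in wild type at 3.29 ± 0.50 (n = 3). Mafk, the other small MAF protein, gave 0.30 ± 0.08 (adjusted p = 0.0642).

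Of the EGR zinc finger factors and the NR4A nuclear receptors, 3 of 5 tested rose in PKR knockout: Egr2, Nr4a1 and Nr4a3. Egr2 was 12.3, 12.5, 9.61 and 12.4 FPKM in knockout libraries, 7.61 and 8.59 in 5xFAD EGFP, 8.33, 6.24, 8.41 and 5.97 with circRNA, and 2.09, 1.62 and 1.18 in wild type. All knockout libraries were above all others, and all wild type libraries were below, with a knockout change of 0.56 ± 0.12 (adjusted p = 0.0341). Egr1 was 62.7, 72.4, 49.7 and 66.1 FPKM in knockout libraries, 40.4 and 61.0 in 5xFAD EGFP, 47.4, 31.9, 26.2 and 23.2 with circRNA, and 29.0, 26.6 and 20.0 in wild type. Here knockout replicate 3 lay between the 2 5xFAD EGFP libraries, and the change of 0.65 ± 0.20 did not pass (adjusted p = 0.0877). Nr4a1 gave 0.60 ± 0.13 (adjusted p = 0.0272) and Nr4a3 0.49 ± 0.09 (adjusted p = 0.0146). Nr4a3 averaged 0.770 FPKM in wild type, 1.35 in 5xFAD EGFP, 0.900 with circRNA and 1.98 in knockout. It reached the tested level of 1 FPKM only through the knockout libraries, so its call is no support, though the knockout counts include it. Nr4a1, at 9.54 ± 1.57 FPKM in knockout (SD, n = 4), overlapped wild type at 8.63 ± 1.74 (n = 3). Egr3 was 1.66 to 2.12 FPKM in knockout and 1.00 to 1.71 in wild type, and its change of 0.28 ± 0.10 did not pass (adjusted p = 0.129). Nr4a2, untested, was 0.55 to 1.03 FPKM in knockout libraries, inside the wild type range of 0.53 to 1.73.

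The short-named immediate early response genes gave the largest knockout change. Ier2, a nuclear protein induced by growth factors, was 127, 123, 84.2 and 103 FPKM in knockout libraries, 49.3 and 48.5 in 5xFAD EGFP, 43.9, 46.8, 50.6 and 30.1 with circRNA, and 34.2, 28.6 and 22.9 in wild type. The lowest knockout library was well above the highest of the other 9, the mean was 2.23 times that of 5xFAD EGFP, and the change was 1.23 ± 0.17 (adjusted p = 0.00410). Ier3, an inducible regulator of cell survival, was 45.0, 52.4, 34.1 and 40.2 FPKM in knockout libraries, 21.6 and 20.1 in 5xFAD EGFP, 19.0, 20.0, 22.2 and 14.98 with circRNA, and 16.0, 14.3 and 8.59 in wild type. Again the knockout libraries did not overlap the others, and the change was 1.06 ± 0.17 (adjusted p = 0.00890).

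Csrnp1, a cysteine- and serine-rich nuclear protein, also rose, at 8.004 ± 0.853 FPKM in knockout (SD, n = 4) and 4.58 ± 0.562 (n = 2) in 5xFAD EGFP, a change of 0.79 ± 0.10 (adjusted p = 0.00335). The antiproliferative gene Btg2 was 169, 164, 144 and 146 FPKM in knockout libraries, 111 and 124 in 5xFAD EGFP, 116, 104, 90.1 and 70.1 with circRNA, and 103, 69.7 and 60.9 in wild type. The knockout libraries were again above all others, yet the change of 0.57 ± 0.17 did not pass (adjusted p = 0.0747). Its relative Btg1 (0.49 ± 0.14, adjusted p = 0.0679) and Ier5 (0.47 ± 0.14, adjusted p = 0.0724) did likewise. Ier5l, untested, was 0.40 to 0.64 FPKM in knockout and 0.60 to 1.152 in wild type.

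Of 5 further transcriptional regulators, Kdm6b, Per1 and Nfil3 rose in knockout. Kdm6b, a histone H3 lysine demethylase induced in stimulated macrophages, was 11.1, 11.2, 9.59 and 9.48 FPKM in knockout libraries, 5.55 and 6.47 in 5xFAD EGFP, 4.65, 3.99, 4.63 and 4.80 with circRNA, and 7.16, 8.30 and 6.44 in wild type. Its groups were tight, with all knockout libraries above the rest, and its change of 0.86 ± 0.08 had the smallest adjusted p of the 34 genes, 0.00172. Per1, a clock gene that is also an immediate-early gene, was 35.5, 27.5, 27.1 and 22.7 FPKM in knockout libraries, 16.1 and 14.4 in 5xFAD EGFP, 14.2, 14.6, 12.0 and 11.4 with circRNA, and 20.96, 10.5 and 10.4 in wild type. Wild type replicate 1 came close to the lowest knockout library without reaching it, and the change was 0.94 ± 0.18 (adjusted p = 0.0198).

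Nfil3, a bZIP repressor of clock and cytokine genes, was 9.72, 7.70, 9.27 and 7.96 FPKM in knockout libraries, 5.52 and 4.50 in 5xFAD EGFP, 4.78, 4.69, 6.17 and 3.97 with circRNA, and 2.42, 1.37 and 1.16 in wild type. It showed the same 3 separate steps as Maff and Atf3, with a knockout change of 0.70 ± 0.14 (adjusted p = 0.0198). Myc, a factor of cell growth, averaged 13.8 ± 1.01 FPKM in knockout (SD, n = 4) and 10.7 ± 4.44 (n = 2) in 5xFAD EGFP, where the 2 libraries read 7.55 and 13.8, and its change of 0.44 ± 0.16 did not pass (adjusted p = 0.133). Hes1, a repressor downstream of Notch, was 1.71, 1.68, 2.304 and 1.41 FPKM in knockout libraries. Its circRNA libraries read 1.98, 2.14, 2.13 and 1.60 FPKM and its 5xFAD EGFP libraries 1.70 and 1.87, for a knockout change of -0.06 ± 0.09 (adjusted p = 0.734).

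Among the kinases and effectors, Plk3, a polo-like kinase of the stress response (0.51 ± 0.12, adjusted p = 0.0366), and Mcl1, a short-lived survival protein (0.48 ± 0.11, adjusted p = 0.0401), rose, and 3 of 5 did not pass. Sgk1, a kinase induced by glucocorticoids and cell stress, was 86.3, 83.8, 74.9 and 85.1 FPKM in knockout libraries, 63.1 and 66.4 in 5xFAD EGFP, 71.7, 66.0, 55.0 and 46.2 with circRNA, and 61.6, 36.4 and 33.2 in wild type. The knockout libraries were above all others by a narrow margin, and the change of 0.41 ± 0.17 did not pass (adjusted p = 0.174). Rhob gave 0.24 ± 0.16 (adjusted p = 0.393), and its highest library was a wild type one.

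**Figure D3:**
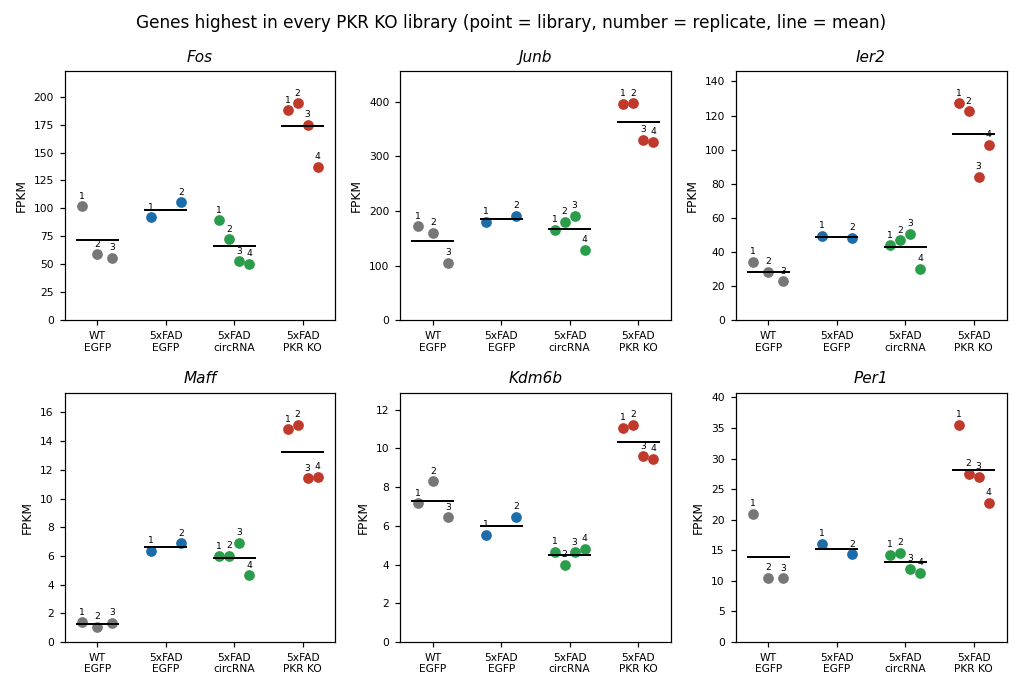
FPKM of Fos, Junb, Ier2, Maff, Kdm6b and Per1 in each library (points, numbered by replicate) with the group mean (line), on axes that start at 0. In each panel the 4 PKR knockout points lie above the other 9; only Maff separates wild type from the 2 other 5xFAD groups, and Kdm6b is lowest with circRNA.

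Against the 5xFAD EGFP libraries alone (n = 2), only Maff (0.89 ± 0.14) and Kdm6b (0.69 ± 0.11) passed, both with an adjusted p of 0.0430. The background was 0.0832% of all genes, 9 in number, all higher. At an unadjusted p under 0.05, 19 of the 34 genes were higher and none lower, against 7.41% of all genes higher and 5.57% lower. The largest changes that did not pass were Ier2 at 1.12 ± 0.22 (adjusted p = 0.0817), Ier3 at 0.99 ± 0.22 (0.132) and Junb at 0.95 ± 0.21 (0.116). Leaving out any 1 PKR knockout library left none of the 34 called in limma, with 16 to 19 still higher at an unadjusted p under 0.05. Of all genes, 2 were higher without PKR knockout replicate 1 and none without another. Leaving out a 5xFAD EGFP library leaves 1 in that group. The median of the 34 was then 0.34 without replicate 1 and 0.53 without replicate 2. Fitting only the 2 groups called 11 of the 34, where 212 of all genes were higher and 365 lower. Against circRNA alone, 22 of 34 rose and none fell in limma (28 and none at an unadjusted p under 0.05), where 1.91% of all genes were higher (207) and 4.28% lower (463) at the adjusted threshold and 5.9% and 19.6% at the unadjusted one. With median-ratio scaling these were 681 higher and 260 lower. Fosb (1.49 ± 0.23, adjusted p = 0.00710), Fos (1.40 ± 0.22, adjusted p = 0.00710) and Ier2 (1.34 ± 0.18, adjusted p = 0.00307) led, and Egr1 (0.98 ± 0.21, adjusted p = 0.0235) and Jun (0.71 ± 0.17, adjusted p = 0.0367) passed here. The count of 22 was 11 without PKR knockout replicate 1 (77 of all genes higher and 70 lower) and 13 without replicate 2 (80 and 84). With the dissociation covariate it was 0, where 0 of all genes were higher and 3 lower. These comparisons share the knockout libraries.

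No gene passed between the circRNA group and 5xFAD EGFP. None of the 34 genes passed in limma, nor did any of the 10817 (background 0%), with adjusted p-values of at least 0.739. At an unadjusted p under 0.05, 6 of the 34 were lower and none higher, against 0.296% of all genes lower (32) and 4.54% higher (491). With median-ratio scaling these were 163 lower and 141 higher, and 11 of the 34 were lower. The count of 6 was 1 without 5xFAD EGFP replicate 2, where 11 of all genes were lower and 82 higher, and 4 without circRNA replicate 3 or 4. It was 2 with the dissociation covariate. The largest differences were Fosb at -0.81 ± 0.29, Egr1 at -0.66 ± 0.26, Klf2 at -0.63 ± 0.40 and Fos at -0.60 ± 0.27, and 29 of the 34 values were below 0, with a median of -0.18 against 0.08 over all genes. All 4 circRNA libraries were below both EGFP libraries for 8 of the 34 (Egr3, Fos, Fosb, Jund, Kdm6b, Klf2, Nr4a1 and Nr4a3), against 2.65% of all genes, and above both for none, against 16.6%. The circRNA libraries spread widely for Fos and Egr1, where replicates 1 and 2, labelled (9,10) and (9,11), read higher than replicates 3 and 4. With 1 library per label, and (9,10) given for the whole group by the design text, the labels cannot be compared.

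Markers of vessel and border cells were higher in wild type, and this moves with each comparison that uses that group. Endothelial markers (7 of 7 with a mean of at least 1 FPKM) summed to 70.0 to 163 FPKM in wild type, 31.0 to 44.6 in 5xFAD EGFP, 44.1 to 89.9 with circRNA and 45.2 to 66.7 in PKR knockout libraries. Mural cell markers (5 of 6) summed to 55.1 to 121 FPKM in wild type and 20.1 to 50.4 over the other groups, and border macrophage markers (5 of 6) to 37.0 to 58.9 and 13.9 to 25.1. In 5xFAD EGFP against wild type, 6 of 7 endothelial, 5 of 5 mural and 5 of 5 border macrophage markers tested were lower in limma, with medians of -1.47, -1.46 and -1.02. In PKR knockout the same counts were 6, 5 and 5, and with circRNA 3, 4 and 5. The covariate for markers of other cells joins endothelial and mural markers with those of neurons, astrocytes and oligodendrocytes, and with it 7 of the 34 genes were higher and 1 lower in 5xFAD EGFP against wild type. Of all genes, 1340 were then higher and 1064 lower, where 827 and 687 were without it. The part of vessel and border markers alone in the changes below was not tested.

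In 5xFAD EGFP against wild type EGFP, which asks what follows the disease model under the same vector, 8 genes passed. Of the 34 genes, 7 rose, against 7.65% of all genes, and 1 fell, against 6.35%. The genes that rose were Egr2 (1.80 ± 0.17, adjusted p = 2.82e-05), Maff (1.76 ± 0.15, adjusted p = 9.96e-06), Atf3 (1.58 ± 0.21, adjusted p = 0.000377), Nfil3 (1.20 ± 0.19, adjusted p = 0.00136), Egr1 (0.97 ± 0.28, adjusted p = 0.0347), Ier2 (0.77 ± 0.23, adjusted p = 0.0421) and Nr4a3 (0.42 ± 0.12, adjusted p = 0.0382). The mean of Maff was 5.27 times, that of Egr2 4.97 times and those of Atf3 and Nfil3 3.03 times the wild type mean. Fos (0.50 ± 0.28, adjusted p = 0.294), Junb (0.38 ± 0.22, adjusted p = 0.302) and Kdm6b (-0.24 ± 0.11, adjusted p = 0.200) did not pass. Both 5xFAD EGFP libraries lay above all 3 wild type libraries for 13 of the 34 genes, against 16.5% of all genes, and below them for 3, against 21.1%. Leaving out a 5xFAD EGFP library leaves 1 in that group, so the spread then comes from the other groups alone. The median of the 34 was 0.46 without replicate 1 and 0.24 without replicate 2. With the dissociation covariate 2 were higher and 1 lower (4 and 7 at an unadjusted p under 0.05, where they were 14 and 3 without it), and the median of the 34 turned from 0.36 to -0.27. Over all genes the same covariate took the counts from 827 higher and 687 lower to 161 and 83.

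Maff, Egr2, Atf3 and Nfil3 were higher in all 10 5xFAD libraries than in all 3 wild type libraries, 4 of 34 genes against 12.7% of all genes, so that a pattern of this kind was no more frequent here than elsewhere. Hes1 was the gene that fell: it was 4.28, 4.72 and 4.64 FPKM in wild type and 1.41 to 2.304 in the 10 5xFAD libraries, without overlap, a change of -0.99 ± 0.12 in 5xFAD EGFP (adjusted p = 0.000213). With the covariate for markers of other cells it was -1.01 ± 0.13, beside the lower vessel and border markers given above. Klf10, a KLF factor induced by TGF-beta, was likewise below wild type in all 10 5xFAD libraries (-0.41 ± 0.14 in 5xFAD EGFP, adjusted p = 0.0697), and Hes1 and Klf10 were 2 of 34 against 5.84% of all genes. With circRNA, 5 genes were higher and 5 lower than wild type, against 17.8% and 8.05% of all genes. Without wild type replicate 1 these were 10 and 4 (2110 and 504 of all genes), and with the dissociation covariate 3 and 7 (678 and 352 of all genes). The genes that were higher were Egr2, Maff, Nfil3, Atf3 and Ier2, and those lower were Hes1 (-0.91), Nr4a1 (-0.72), Kdm6b (-0.59), Fosl2 (-0.50) and Klf10 (-0.37). In PKR knockout against wild type, 24 of 34 were higher and 2 lower (Hes1, -1.01, and Klf10, -0.36), against 17.5% and 19.4% of all genes (Klf10 was -0.30 with the covariate for other cells, adjusted p = 0.127), with Maff at 2.65 ± 0.12 the largest. With the dissociation covariate 2 of 34 were higher and 1 lower, the median of the 34 went from 0.80 to -0.02, and 9 called changes turned below 0. Over all genes that covariate took the counts from 1898 higher and 2099 lower to 202 and 172. Rescaling each library to the same FPKM sum moved the median of all genes to -0.17, -0.20 and -0.24 in these 3 comparisons and made the counts 6 higher and 4 lower, 4 and 9, and 21 and 3. Over all genes the rescaled counts were 708 higher and 3001 lower, 995 and 4681, and 1174 and 5421.

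None of the 4 KLF factors passed in limma in knockout against the other 5xFAD groups, also at an unadjusted p under 0.05, though all 4 values were above 0, and Klf2 and Klf4 varied more between replicates than almost any gene: the residual SD within groups was 0.54 log2 units for Klf2 and 0.40 for Klf4, at or above 98.4% and 94.8% of all tested genes. Klf2, a flow- and statin-induced factor that restrains inflammation in endothelium and myeloid cells, was 25.1, 14.0, 32.8 and 10.4 FPKM in knockout libraries, 20.0 and 27.5 in 5xFAD EGFP, 19.9, 15.6, 11.1 and 13.9 with circRNA, and 42.1, 18.9 and 28.9 in wild type. Klf4, its close relative, was 19.0, 15.1, 22.2 and 10.3 FPKM in knockout libraries, 10.9 and 17.8 in 5xFAD EGFP, 11.1, 10.2, 9.20 and 7.48 with circRNA, and 17.7, 8.49 and 12.7 in wild type. For both genes knockout replicates 1 and 3 were higher than 2 and 4, and wild type replicate 1 was the highest of its group. The knockout change was 0.00 ± 0.31 for Klf2 (adjusted p = 0.997) and 0.45 ± 0.23 for Klf4 (adjusted p = 0.267), errors that leave room for changes as large as those of genes that passed. Against circRNA alone Klf4 gave 0.71 ± 0.25 (adjusted p = 0.0990), the only one of the 4 at an unadjusted p under 0.05, and the median of the 4 was 0.25. Klf6, a widely expressed KLF factor (0.11 ± 0.14), and Klf10 (0.03 ± 0.10) did not pass either.

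Other genes with large residual SD were Fosb (0.38), Fos (0.34), Egr1 (0.34) and Plk2 (0.33), and the median over the 34 genes was 0.23 against 0.13 over all genes. Plk2, a polo-like kinase of neurons and stressed cells, was 6.64, 2.35 and 5.38 FPKM in wild type, 2.74 and 3.13 in 5xFAD EGFP, 3.75, 2.52, 2.76 and 3.38 with circRNA, and 3.06, 2.68, 3.02 and 2.14 in knockout libraries. Its spread lay in wild type, where replicates 1 and 3 were above all other libraries. Kdm6b (0.12) and Mafk (0.13) had among the smallest residual SD, near the median of all genes.

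The spread of Klf2 and Klf4 within groups was set beside 4 glucocorticoid and heat shock genes, which were chosen after their values were seen. The glucocorticoid target Tsc22d3 was 16.6, 4.66, 14.6 and 5.16 FPKM in the knockout libraries and 22.6, 8.26 and 11.7 in wild type, and Ddit4, another glucocorticoid and stress target, was 9.69, 2.42, 8.69 and 1.90 in knockout and 27.0, 5.65 and 9.32 in wild type. Knockout replicates 1 and 3 and wild type replicate 1 were high for both, as they were for Klf2 and Klf4. Not all glucocorticoid-responsive genes shared this order. Klf9 was highest in wild type replicate 3 (6.72, 4.70 and 9.71 FPKM in wild type), and Nfkbia was 176, 168, 126 and 159 FPKM in knockout. The mean log2 level of the glucocorticoid genes used as a covariate, Tsc22d3 and Ddit4 among them, did share it. That mean was 3.44, 2.38, 3.17 and 2.52 in knockout replicates 1 to 4, and 3.69, 2.91 and 3.59 in wild type. The heat shock gene Hspa1a was 33.3, 19.9, 56.9 and 15.1 FPKM in knockout libraries, 106 and 68.3 in 5xFAD EGFP, 80.7, 61.9, 32.5 and 57.3 with circRNA, and 101, 50.8 and 58.3 in wild type. It was lowest in knockout replicates 2 and 4, and its knockout change of -1.28 ± 0.36 did not pass (adjusted p = 0.0677). Hspa1b, its neighbouring near-identical copy, with which reads may be shared, gave -1.29 ± 0.38 (adjusted p = 0.0801). Of the 9 heat shock genes 7 had values below 0, and the other two, Hspa8 (0.34 ± 0.17) and Hsp90ab1 (0.23 ± 0.16), had values above 0 without passing. Of 12 glucocorticoid-responsive genes 3 rose in knockout, against 1.85% of all genes, and none fell; 2 of the 12 are also on the dissociation list described below. The 3 that rose were Nfkbia, an inhibitor of NF-kappaB (0.98 ± 0.15, adjusted p = 0.00697), Dusp1, a phosphatase of MAP kinases (0.89 ± 0.19, adjusted p = 0.0295), and the cell cycle inhibitor Cdkn1a (0.82 ± 0.10, adjusted p = 0.00251), and the median of the 12 was 0.08.

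**Figure D4:**
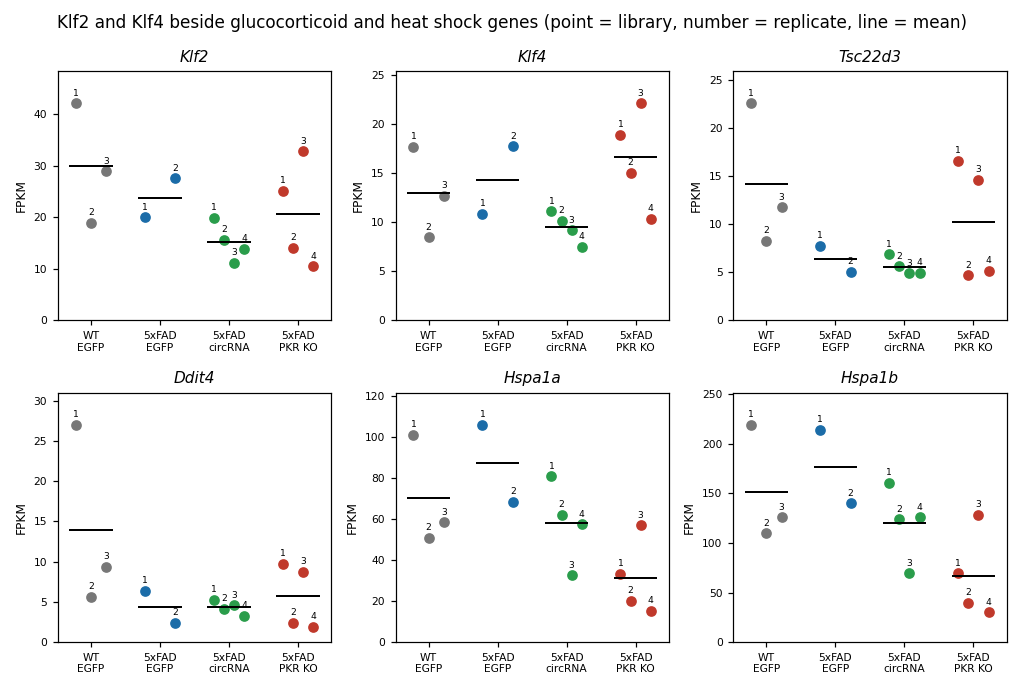
FPKM of Klf2, Klf4, Tsc22d3, Ddit4, Hspa1a and Hspa1b in each library (points, numbered by replicate) with the group mean (line), on axes that start at 0. Knockout replicates 1 and 3 lie above 2 and 4 in all 6 panels, and the knockout means of Hspa1a and Hspa1b are the lowest of the 4 groups.

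The list of genes known to be induced by tissue dissociation held 26 genes, none of them among the 36. In knockout against the other 5xFAD groups 10 rose and none fell, against 1.85% and 1.97% of all genes, with a median of 0.53. When the list was divided after its values were seen, none of its 9 heat shock genes passed in limma (2 lower at an unadjusted p under 0.05) and 7 had values below 0 (median -0.28), whereas all 17 other genes had values above 0 and 10 passed (median 0.78). In 5xFAD EGFP against wild type 12 of 26 rose, against 7.65% of all genes, and all 26 values were above 0. The mean log2 level of the list was 5.25 to 5.40 in knockout, 5.08 to 5.11 in 5xFAD EGFP, 4.63 to 5.05 with circRNA and 4.03 to 4.63 in wild type, the same order of group means as for Maff and Atf3. With that mean as a covariate none of the 34 genes passed in any of the 3 knockout comparisons within 5xFAD, while at an unadjusted p under 0.05 13 were higher and none lower against 5xFAD EGFP, and 12 and 1 against circRNA. Against the other 5xFAD groups Kdm6b was then 0.86 ± 0.12 (adjusted p = 0.0517) and Maff 0.90 ± 0.16 (adjusted p = 0.0578), close to their values without it. The same covariate took the calls over all genes against the other 5xFAD groups from 200 higher and 213 lower to none higher and 2 lower, with 431 higher and 1398 lower at an unadjusted p under 0.05. With the mean of the 9 heat shock genes as the covariate, an alternative added after the data were seen, 11 passed there, and with glucocorticoid genes 18. Of the 26 genes, 6 are also feedback inhibitors, so the list is not separate from the response itself, and how far isolation of the cells contributed was not tested.

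No transcript of the upstream factors and kinases tested passed in the knockout comparison, and several genes of the feedback inhibitor list rose. These upstream factors are activated by kinases, so their transcript levels do not measure their activity, which was not tested. Of 21 tested upstream factors and kinases (24 symbols looked up, SRF partners, CREB and NF-kappaB factors and MAP kinases), none passed in knockout against the other 5xFAD groups in limma, with 3 higher and 3 lower at an unadjusted p under 0.05 and a median of -0.01. In 5xFAD EGFP against wild type 2 of the 21 rose in limma, where 7.65% of all genes were higher. They were Mapkapk2, a kinase that stabilizes cytokine messages (0.80 ± 0.14, adjusted p = 0.00330), and Crem, a CREB relative (0.29 ± 0.07, adjusted p = 0.0223). None of 11 other AP-1 related bZIP genes passed in knockout in limma, with 5 higher and 1 lower at an unadjusted p under 0.05. Of 19 feedback inhibitors 8 rose and 1 fell in knockout against the other 5xFAD groups, where 1.85% of all genes were higher and 1.97% lower. The largest were Socs3, a brake on cytokine receptors (1.28 ± 0.15, adjusted p = 0.00251), Zfp36, which destabilizes cytokine and immediate-early messages (1.19 ± 0.19, adjusted p = 0.00890), Tnfaip3, an ubiquitin-editing inhibitor of NF-kappaB (1.12 ± 0.14, adjusted p = 0.00335), and Nfkbiz, an inducible nuclear cofactor of NF-kappaB (1.00 ± 0.14, adjusted p = 0.00425). Spred1, an inhibitor of RAS signalling, fell by 0.30 ± 0.07 (adjusted p = 0.0311).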

How the data were processed

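Microglial total RNA was taken with TRIzol, freed of ribosomal RNA and sequenced from stranded libraries on a NovaSeq instrument, per the labels' protocols. Per the submitters' processing notes, HISAT2 2.1.0, Bowtie2 2.3.5, featureCounts 1.5.1 and build mm10 were used; their roles, the annotation and the use of strand are not given in the sources used here. The authors deposited 1 table of FPKM values with a column for each of the 13 libraries. FPKM divides by each library's total, so a large change in a few abundant genes moves all others.

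Values were tested as log2(FPKM + 1) with limma 3.58.1 in R 4.3.3, in the 10817 genes that averaged 1 FPKM or more. All 4 groups entered 1 fit with 9 residual degrees of freedom and eBayes with an intensity trend, and p-values were adjusted by Benjamini-Hochberg over all genes within each of 7 comparisons. Errors in the text are SE for changes and SD for group means. The fit was tested on simulated data. A change of 1 log2 unit was given to 200 genes (among 10817). The fit recovered 96% of them for PKR knockout against the mean of the other 5xFAD groups and 87% against 5xFAD EGFP. For a change of 0.5 log2 units it recovered 68.5% and 49%. The immediate-early genes tested had a median residual SD of 0.23, against 0.13 over all genes. Recovery at their spread was not tested, so these percentages may be too high for them. Depth came from the steps of low FPKM values with GENCODE M21 exon lengths, and 91.5% to 93.1% of low values were whole fragments within 0.02. Alternatives were another pseudocount, no filter, 2 other scalings, only the compared groups, a replicate block, covariates and leaving out each library.

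The 36 genes, the other lists and the rules were chosen with earlier results of these data known. Values in every library are given for the 15 genes with the largest change among the 28 that passed in any comparison and for the 6 with the largest residual SD; list genes are named where they passed, the 4 with the largest change in a comparison. Outside that rule, Spred1, Klf9, Tsc22d3, Ddit4, Hspa1a, Hspa1b, Hspa8 and Hsp90ab1 were named after their values were seen.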

Additional observations from a re-analysis of the deposited data

Results flagged for a closer look

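In 72 groups of 4 libraries checked (36 genes with circRNA and in PKR knockout), 3 held a library whose gap to its nearest neighbour took up more of the group's range than the 95% critical value of 0.829, and chance alone flags about 5% of groups. Egr2 was 9.61 FPKM in PKR knockout replicate 3, where the other 3 libraries were 12.3 to 12.5, a gap of 0.930 of the range. Btg1 was 32.1 FPKM in circRNA replicate 4, where the others were 40.7 to 41.7 (0.903 of the range). Btg1 was also 62.8 FPKM in PKR knockout replicate 2, where the others were 54.6 to 55.9 (0.843 of the range). Egr2 at 9.61 was still above every library outside the knockout group.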

How the results depend on the processing

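Counts of the 34 genes that passed were recomputed under each alternative. For PKR knockout against 5xFAD EGFP (2 genes) no gene passed with a pseudocount of 0.1, with no filter on low values, with libraries rescaled to the same sum, or with the dissociation or heat shock genes as a covariate, while 5 passed with median-ratio scaling and 11 with only the compared groups; leaving out a library gave 0 to 0. For knockout against the mean of the other 5xFAD groups (17) no gene passed with the dissociation covariate and 11 with the heat shock covariate, and leaving out a library gave 6 to 17. Against circRNA (22) the dissociation covariate left 0, and leaving out a library gave 11 to 20. For 5xFAD EGFP against wild type (8) the count was 5 with no filter, 5 with only the compared groups and 3 with the dissociation covariate, and leaving out a library gave 5 to 12. For knockout against wild type (26) the dissociation covariate left 3, and leaving out a library gave 24 to 26; for circRNA against wild type it gave 8 to 14, and against 5xFAD EGFP 0 to 0. The cause of these shifts was not tested, except that leaving out a library or group leaves fewer samples.

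With the dissociation covariate, 9 changes between knockout and wild type turned: Btg1 to -0.053, Btg2 to -0.32, Fos to -0.45, Fosb to -0.16, Jun to -0.41, Klf6 to -0.63, Mcl1 to -0.028, Per1 to -0.43 and Sgk1 to -0.44. No other alternative turned a called change. Of 15 alternatives for 5xFAD EGFP against wild type, Maff, Egr2 and Hes1 passed in all 15, Atf3 and Nfil3 in 14, Ier2 in 6, Nr4a3 in 5 and Egr1 in 4. Of 20 for knockout against the other 5xFAD groups, Ier2, Ier3, Junb, Csrnp1, Kdm6b and Maff passed in 19 each, Fos in 15, Fosl2 in 11, Plk3 in 10 and Mcl1 in 8.

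The replicate numbers are shared between groups without a stated pairing, and the same-numbered libraries did not deviate together in every pair (correlations of -0.18 to 0.58 for wild type with knockout and 0.036 to 0.55 for circRNA with knockout). With a replicate block in the fit, 5 genes passed for 5xFAD EGFP against wild type, 21 for knockout against the mean of the other 5xFAD groups, 22 against circRNA, 3 against 5xFAD EGFP, 27 against wild type, and 12 for circRNA against wild type. The 5xFAD EGFP group has 2 libraries; depth limits only the lowest genes, such as Ier5l with 58 to 156 fragments and Nr4a2 with 103 to 355.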
